A study of Danio rerio with 24 samples.

Results

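her4.1 (ENSDARG00000056732), HEY1 (ENSDARG00000070538) and HEY2 (ENSDARG00000013441) were taken by name as zebrafish target genes of the Notch pathway, 3 of the 31087 gene IDs in the expression table. Symbols in capitals are the mammalian ortholog names that the name table gives to the zebrafish IDs. All 3 genes passed the filter on low values and were among the 21860 genes tested. They were followed in GFP+ and GFP- cells of the lateral line enhancer-trap line Tg(sqET20), a line known for GFP in mantle and supporting cells of the neuromasts and in some other cells. Every group, mock included, carried this transgene and came from larvae of 5 days post fertilization. Neomycin groups had received 300 uM of the antibiotic for 30 min and recovered for 1, 3 or 5 h, and mock groups, given no drug, were labelled 1 h. Each sample pooled 200 larvae and used about 30000 sorted living cells, and each of the 8 groups held 3 samples, so 24 polyadenylated RNA libraries were measured. As nothing states that the replicates came from separate clutches, p-values measure only the spread between these samples.

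The lateral line is a set of skin organs, the neuromasts, in which sensory hair cells are encircled by supporting cells and, at the rim, by mantle cells. Neomycin kills hair cells, and zebrafish replace them from supporting cells. Notch is a receptor that is cut when a ligand on a neighbouring cell binds it; the freed intracellular part enters the nucleus, joins the DNA-binding protein Rbpj and a Mastermind coactivator, and turns on genes of the her, hes and hey families. Their products are basic helix-loop-helix repressors that hold back genes such as atoh1, and in the neuromast Notch signalling is known to restrain supporting cells from dividing and becoming hair cells. her4.1 belongs to the Hes5-like group, and its copies are widely used as a readout of Notch activity in zebrafish neural progenitors. HEY1 and HEY2 encode hairy-related repressors with a YRPW motif, known in zebrafish for roles in the somites and, for hey2 (gridlock), in artery formation.

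The values were FPKM (sequenced fragments scaled to transcript length and library size), which are scaled per length and can be compared between genes. Total counts are not known, so no counting interval is given; relative depth, read from the lowest values, ran from 0.732 to 1.26 of the median library and was 0.732 to 0.841 in GFP+ cells at 3 h. Libraries of one group correlated at 0.932 to 0.952 across genes. Mock and 1 h libraries carry the experiment date Mar2012 and 3 h and 5 h libraries Apr2012. A change at 3 h or 5 h from mock therefore cannot be told apart from the date, or from a later time of sampling, as mock was sampled at 1 h. The comparisons of 1 h with mock and of 5 h with 3 h lie within a date. In mock larvae 11 of 12 hair cell markers and 9 of 12 supporting and mantle cell markers were higher in GFP+ than in GFP- cells, the other 3 of these being lower, and all 7 neuron and all 8 blood markers matched were lower. Among all tested genes, 21.7% were called higher and 48.0% lower in this comparison. The marker lists were chosen with earlier results of these data known, so these counts are no independent test of which cells were sorted.

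HEY1 was the most abundant of the 3 genes in GFP+ cells. In GFP+ cells it had 27.9, 35.2 and 42.4 FPKM in mock, 13.5, 19.0 and 21.4 FPKM at 1 h, 19.8, 25.7 and 21.3 FPKM at 3 h, and 35.8, 43.7 and 40.4 FPKM at 5 h. All libraries of 1 h and 3 h lay below all mock libraries, and those of 5 h overlapped mock. On the log2(FPKM + 1) scale HEY1 fell by 0.94 ± 0.18 (SE) at 1 h (limma, Benjamini-Hochberg adjusted p = 0.000441), with group means of 18.0 ± 4.03 FPKM after neomycin and 35.2 ± 7.24 FPKM in mock (SD, n = 3 each). It fell by 0.63 ± 0.18 at 3 h (limma, adjusted p = 0.0130). At 5 h the change was 0.20 ± 0.18 (limma, adjusted p = 0.510), with a mean of 40.0 ± 3.97 FPKM (SD, n = 3).

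HEY2 had the lowest levels and, at 1 h, the largest log2 change of the 3 genes. In GFP+ cells it had 3.79, 7.31 and 5.55 FPKM in mock, 1.298, 2.16 and 2.51 FPKM at 1 h, 2.77, 2.25 and 2.75 FPKM at 3 h, and 4.77, 5.28 and 5.83 FPKM at 5 h. Again no 1 h or 3 h library reached the lowest mock library, and the 5 h values lay inside the range of mock. HEY2 fell by 1.12 ± 0.17 on the log2(FPKM + 1) scale at 1 h (limma, adjusted p = 4.31e-05), to 1.99 ± 0.623 FPKM after neomycin, against 5.55 ± 1.76 FPKM in mock (SD, n = 3 each). It fell by 0.83 ± 0.17 at 3 h (limma, adjusted p = 0.00111), and at 5 h the change was -0.025 ± 0.17 (limma, adjusted p = 0.957). At these low levels the added 1 FPKM shrinks the change, which was -1.44 at 1 h with an added 0.1 FPKM.

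her4.1 was called lower at 3 h only. In GFP+ cells it had 11.9, 12.6 and 13.9 FPKM in mock, 5.79, 12.4 and 7.44 FPKM at 1 h, 4.68, 8.19 and 5.25 FPKM at 3 h, and 8.14, 11.1 and 12.4 FPKM at 5 h. At 1 h the library of replicate 2 lay within the range of mock and the other two below it, while every 3 h library lay below every mock library. The change at 1 h was -0.59 ± 0.23 on the log2(FPKM + 1) scale and missed the threshold (limma, adjusted p = 0.0598); without replicate 2 of the 1 h group it was -0.86 (adjusted p = 0.00656). At 3 h her4.1 fell by 1.00 ± 0.23 (limma, adjusted p = 0.00317), to 6.04 ± 1.88 FPKM after neomycin, against 12.8 ± 1.03 FPKM in mock (SD, n = 3 each). At 5 h the change was -0.27 ± 0.23 (limma, adjusted p = 0.482). The 1 h and 3 h values of GFP+ cells overlapped for each of the 3 genes, so the data do not resolve whether the lowest point was reached at 1 h or 3 h.

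**Figure D1:**
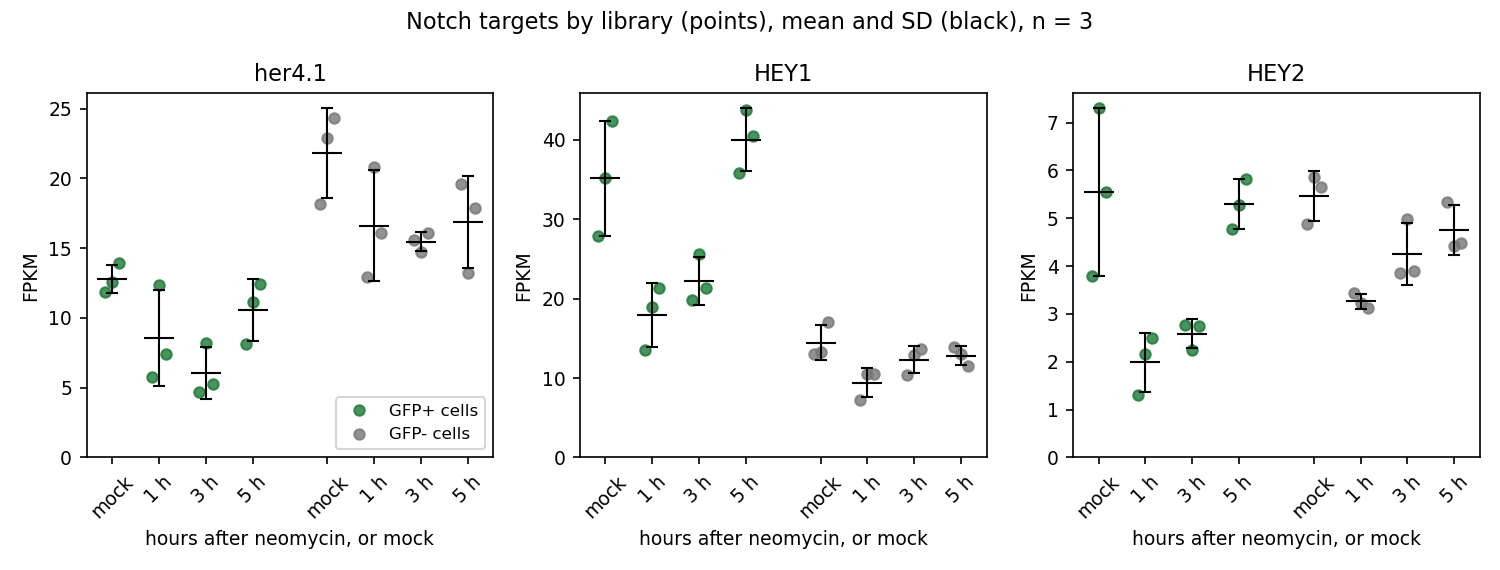
FPKM of her4.1, HEY1 and HEY2 (vertical axes, one scale per gene) in each library of GFP+ cells (green, left) and GFP- cells (grey, right) in mock larvae and 1, 3 and 5 h after neomycin; points are libraries and black bars the mean and SD of 3. In GFP+ cells HEY1 and HEY2 are below all mock libraries at 1 h and 3 h and overlap mock at 5 h, and her4.1 is below mock in every library at 3 h.

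In counts, 2 of the 3 genes were called lower in GFP+ cells at 1 h, 3 of 3 at 3 h and 0 of 3 at 5 h. Of all tested genes, 33.0% were called at 1 h in either direction (19.1% lower), 28.1% at 3 h (8.15% lower) and 19.2% at 5 h (4.09% lower). At an unadjusted p under 0.05 limma gave 3, 3 and 0 of the 3 genes at 1, 3 and 5 h, and 40.8%, 38.4% and 30.7% of all tested genes. Models of the compared groups alone called 3819, 3788 and 1745 of all tested genes at these times, against 7213, 6139 and 4199 in the model of all groups. In a model of the 2 groups of a comparison alone, the 3 h calls of HEY1 and HEY2 missed the threshold (adjusted p = 0.0673 and 0.0582) with the same log2 changes. HEY1 also missed it at 3 h without replicate 3 of the mock group (log2 change -0.48, adjusted p = 0.0741) or replicate 1 of the 3 h group (log2 change -0.55, adjusted p = 0.0601). With median-of-ratios scaling and with quantile normalization the 3 h calls were kept. The log2 changes were then -0.80 and -0.82 for HEY1, -0.99 and -0.88 for HEY2, and -1.17 and -1.12 for her4.1.

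her4.1 is one of 5 her4 copies, which follow each other with no other protein-coding gene between them in the RefSeq table of the assembly GRCz12tu. The copies are near-identical, so the share of reads that the authors' counting gave to each is uncertain. her4.1 held 51.1% to 64.8% of the summed her4 FPKM in GFP+ libraries, and 36.5% to 51.7% in GFP- libraries. In GFP+ cells the sum averaged 22.0 ± 2.75 FPKM in mock, 14.8 ± 4.28 at 1 h, 10.4 ± 3.23 at 3 h and 18.9 ± 3.76 at 5 h (SD, n = 3 each). With the sum in place of her4.1 the change was -0.57 ± 0.20 at 1 h (limma, adjusted p = 0.0342) and -1.04 ± 0.20 at 3 h (limma, adjusted p = 0.000723), so the sum passed the threshold at both times.

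The other 4 copies were all called lower at 3 h in GFP+ cells. her4.2 averaged 2.37 FPKM at 3 h and 4.37 FPKM in mock (log2 change -0.67 ± 0.17, limma, adjusted p = 0.00525). her4.3 was near the detection limit, with 0.297 FPKM at 3 h and 1.15 FPKM in mock (-0.75 ± 0.17), and 1 of its 3 h libraries held a value of almost 0. her4.4 (-0.51 ± 0.15) and her4.5 (-0.70 ± 0.24) fell as well. In a model of the compared groups alone her4.2, her4.4 and her4.5 missed the threshold (adjusted p = 0.0695, 0.0954 and 0.0912). Without mock replicate 2, or replicate 1 or 3 of the 3 h group, both her4.4 and her4.5 missed it as well, with log2 changes of -0.43, -0.44 and -0.44 for her4.4 and -0.60, -0.57 and -0.65 for her4.5, and her4.5 also without mock replicate 3 (-0.63) and with no filter on low values (adjusted p = 0.0531). None of these 4 copies passed at 1 h (log2 changes from -0.44 to -0.33, limma, 2 of the 4 at an unadjusted p under 0.05) or at 5 h (-0.31 to 0.17, limma, 0 of 4 at an unadjusted p under 0.05). At 1 h her4.3 (adjusted p = 0.0510) did pass in a model of the compared groups alone (adjusted p = 0.0211), with median-of-ratios scaling (adjusted p = 0.0478), after subtraction of a GFP- share (adjusted p = 0.0301) and without any of several single libraries, her4.2 and her4.4 passed with the replicate number as a block (adjusted p = 0.0371 and 0.0429), and her4.4 without replicate 2 of the 1 h group (adjusted p = 0.0413). heyl, the third hey gene, averaged at most 1.57 FPKM in any group, a mean of GFP- cells. In GFP+ cells it averaged 0.287 FPKM at 3 h and 0.647 FPKM in mock, and only GFP- libraries brought it past the filter of 1 FPKM. It was not called at any time in GFP+ cells, with log2 changes of -0.27, -0.36 and -0.22 at 1, 3 and 5 h. At 3 h heyl passed with an added 0.1 FPKM (-0.99, adjusted p = 0.0374), with median-of-ratios scaling (-0.44, adjusted p = 0.0311), in a model of the compared groups alone (adjusted p = 0.0385) and with the replicate number as a block (adjusted p = 0.0373).

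**Figure D2:**
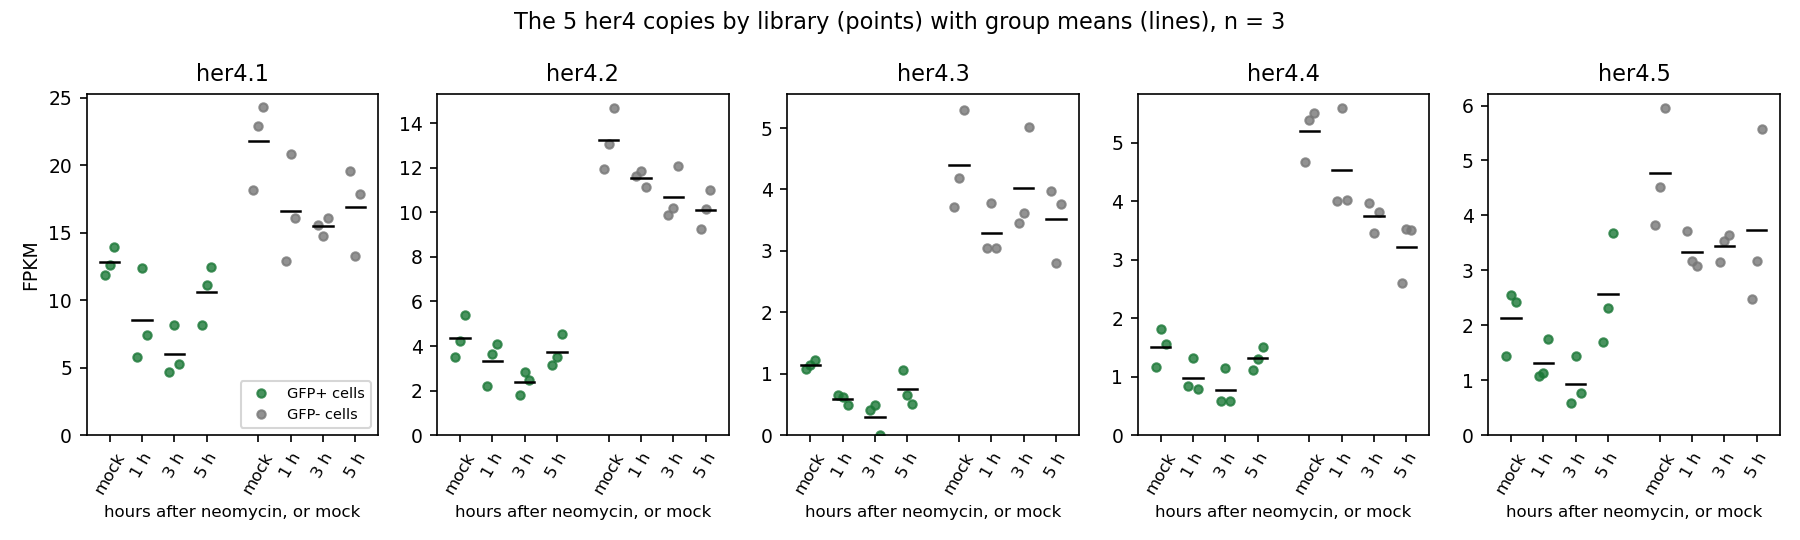
FPKM of the 5 her4 copies (one panel and vertical scale each) in every library of GFP+ (green) and GFP- (grey) cells, in mock larvae and 1, 3 and 5 h after neomycin; lines are means of 3. Each copy has its lowest GFP+ mean at 3 h, and her4.1 has the highest level of the 5.

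In GFP- cells none of the 3 genes passed the test at any time in the model of all libraries as deposited. HEY1 had 13.1, 13.2 and 17.0 FPKM in mock, 7.28, 10.5 and 10.5 FPKM at 1 h, 10.4, 12.9 and 13.6 FPKM at 3 h, and 13.9, 13.1 and 11.5 FPKM at 5 h. HEY2 had 4.89, 5.87 and 5.65 FPKM in mock, 3.43, 3.23 and 3.13 FPKM at 1 h, 3.85, 4.99 and 3.90 FPKM at 3 h, and 5.35, 4.42 and 4.48 FPKM at 5 h. For HEY1 and HEY2 the 1 h libraries lay below all mock libraries. Full separation of 3 against 3 samples has a p of 0.10 in an exact permutation test. How many of all tested genes separated in this way was not counted for any comparison. her4.1 had 18.1, 22.9 and 24.3 FPKM in mock, 12.9, 20.8 and 16.1 FPKM at 1 h, 15.5, 14.7 and 16.1 FPKM at 3 h, and 19.6, 13.2 and 17.9 FPKM at 5 h, and its 3 h libraries lay below mock.

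The largest log2 changes in GFP- cells were at 1 h for the hey genes, -0.57 ± 0.18 for HEY1 (limma, adjusted p = 0.0971) and -0.60 ± 0.17 for HEY2 (limma, adjusted p = 0.0669). For her4.1 the log2 changes were -0.39, -0.46 and -0.36 at 1, 3 and 5 h (limma, adjusted p = 0.437, 0.280 and 0.543). Calls among all tested genes were also rarer in GFP- cells, at 2.70%, 4.42% and 1.04% at 1, 3 and 5 h. These 591, 966 and 228 calls dropped to 225 without 1 h replicate 1, 268 without 3 h replicate 3 and 67 without 5 h replicate 2 of the GFP- cells, and models of the compared groups alone gave 96, 60 and 18. At an unadjusted p under 0.05 limma gave 2, 0 and 0 of the 3 genes, and 16.3%, 19.9% and 13.6% of all tested genes.

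Whether the change differed between the populations was tested directly as the log2 change in GFP+ cells minus that in GFP- cells, a comparison in which a date effect common to both populations cancels. None of the 3 genes passed it at any time, against 14.1%, 6.22% and 2.82% of all tested genes at 1, 3 and 5 h. The 1360 genes at 3 h and 617 at 5 h became 754 and 125 with median-of-ratios scaling. At 1 h the difference was -0.20 ± 0.33 for her4.1, -0.36 ± 0.25 for HEY1 and -0.52 ± 0.24 for HEY2 (limma, adjusted p = 0.776, 0.414 and 0.174). At 3 h it was -0.54 ± 0.33, -0.41 ± 0.25 and -0.53 ± 0.24 in the same order (limma, adjusted p = 0.376, 0.378 and 0.214). At 5 h it was 0.087, 0.35 and 0.15. Only HEY2 at 1 h and 3 h had an unadjusted p under 0.05 in this test (0.0430 and 0.0403). Of all tested genes, 25.9% at 1 h and 20.7% at 3 h had such a p. Within 2 SE the difference for HEY2 at 3 h ran from -1.01 to -0.05 and that for her4.1 from -1.20 to 0.12. The falls in GFP+ cells were thus not shown to differ from the changes in GFP- cells.

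**Figure D3:**
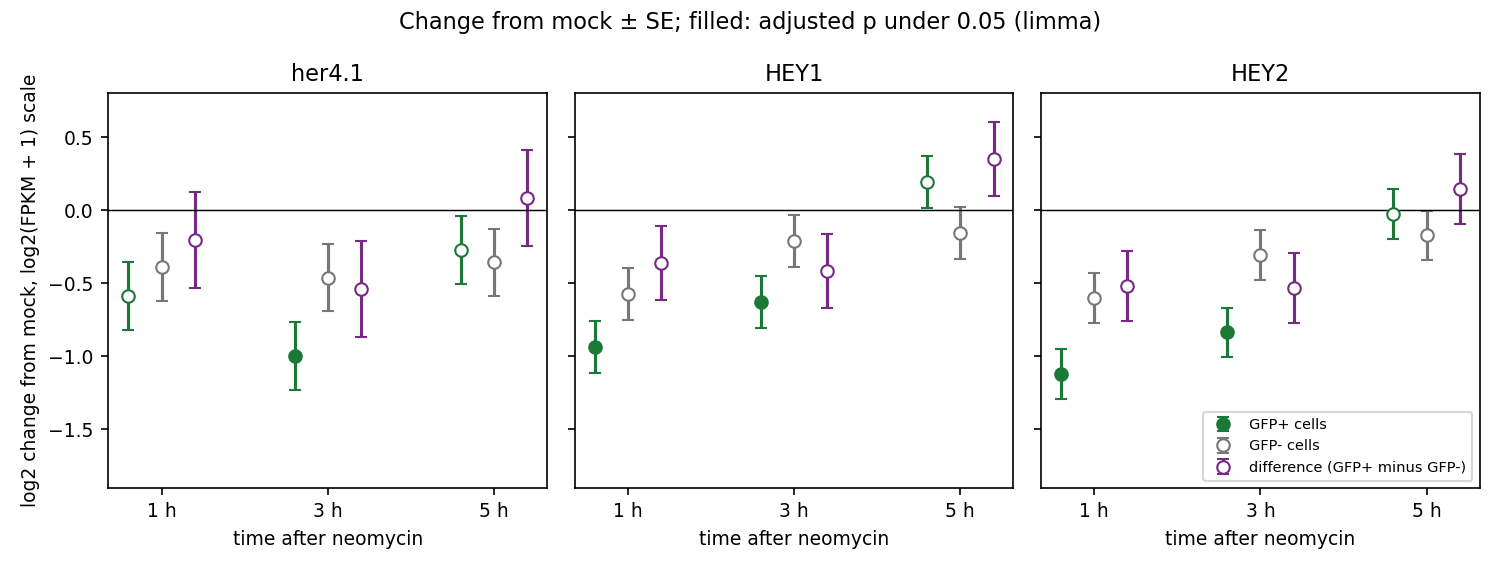
Change from mock of her4.1, HEY1 and HEY2 (log2(FPKM + 1) scale, vertical axis) 1, 3 and 5 h after neomycin in GFP+ cells (green), in GFP- cells (grey) and as the difference of both changes (purple), each with its SE; filled points passed limma's adjusted p of 0.05. The filled points are GFP+ changes at 1 h and 3 h, and no difference between the populations passed.

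Between populations of mock larvae the 3 genes parted. HEY1 was higher in GFP+ cells, 35.2 ± 7.24 FPKM in GFP+ and 14.4 ± 2.22 FPKM in GFP- cells (SD, n = 3 each; log2 difference 1.22 ± 0.18, limma, adjusted p = 6.68e-06). her4.1 was lower in GFP+ cells, 12.8 ± 1.03 FPKM in GFP+ and 21.8 ± 3.24 FPKM in GFP- cells (log2 difference -0.72 ± 0.23, limma, adjusted p = 0.0101). HEY2 averaged 5.55 ± 1.76 FPKM in GFP+ and 5.47 ± 0.519 FPKM in GFP- cells (log2 difference -0.015 ± 0.17, limma, adjusted p = 0.949). Calls in this comparison were the rule, with 69.7% of all tested genes called, 21.7% higher and 48.0% lower. The median tested gene was lower in GFP+ cells by a log2 difference of -0.35. With median-of-ratios scaling that median was -0.042, the difference was -0.35 for her4.1 (adjusted p = 0.213), which no longer passed, and HEY2 moved to 0.31 (adjusted p = 0.110). HEY1 kept its call under both other scalings, and the her4 sum was lower in GFP+ cells as deposited (-1.13 ± 0.20, limma, adjusted p = 5.77e-05).

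From the highest mean to the lowest, her4.1 ran through GFP- mock, 5 h, 1 h and 3 h and then GFP+ mock, 5 h, 1 h and 3 h. Neighbours in that order overlapped everywhere except between GFP- cells at 3 h and GFP+ mock. HEY1 ran through GFP+ 5 h, mock, 3 h and 1 h and then GFP- mock, 5 h, 3 h and 1 h, with 1 gap, between GFP+ mock and GFP+ 3 h. HEY2 ran through GFP+ mock, GFP- mock, GFP+ 5 h, GFP- 5 h and GFP- 3 h, all overlapping, then after a gap GFP- 1 h, and after another gap GFP+ 3 h and 1 h.

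Within the Apr2012 libraries, HEY1 and HEY2 were higher at 5 h than at 3 h in GFP+ cells. HEY1 averaged 40.0 ± 3.97 FPKM at 5 h and 22.2 ± 3.05 FPKM at 3 h (SD, n = 3 each; log2 change 0.82 ± 0.18, limma, adjusted p = 0.0243). HEY2 averaged 5.29 ± 0.527 FPKM at 5 h and 2.59 ± 0.295 FPKM at 3 h (log2 change 0.81 ± 0.17, limma, adjusted p = 0.0209). For both genes every 5 h library lay above every 3 h library. her4.1 averaged 10.6 ± 2.2 FPKM at 5 h and 6.04 ± 1.88 FPKM at 3 h, with overlapping libraries and a log2 change of 0.73 ± 0.23 that missed the threshold (limma, adjusted p = 0.123). Called genes were rare here, 1.78% of all tested genes in either direction and 1.07% higher, and 2 of the 3 genes were among them. The 389 calls dropped to 89 without replicate 1 and 135 without replicate 3 of the 3 h group, and to 1 in a model of the 2 groups alone.

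Both calls between 5 h and 3 h depended on single libraries. Without replicate 1 or 3 of the 3 h group, or replicate 2 or 3 of the 5 h group, neither passed, with log2 changes of 0.75 to 0.81 for HEY1 and 0.75 to 0.85 for HEY2. A model of the 2 groups alone gave an adjusted p of 0.190 for both. In GFP- cells the log2 changes between 5 h and 3 h were 0.10 for her4.1, 0.057 for HEY1 and 0.13 for HEY2, and limma called 0 of all tested genes (0%; 1326 at an unadjusted p under 0.05, and 7 called in a model of these groups alone).

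In these bulk samples, fewer cells that express a gene and less RNA per cell cannot be told apart. Marker sums of several cell types also moved in GFP+ cells. The 12 supporting and mantle cell markers summed to between 5472 and 6852 FPKM in mock; the sum lay between 2382 and 4595 at 1 h, between 2322 and 2781 at 3 h, and between 2936 and 4234 at 5 h, and 5, 5 and 2 of them were called lower and 0, 1 and 1 higher at the 3 times. The 12 hair cell markers summed to between 3609 and 5079 FPKM in mock, with 3040 and 3180 as the extremes at 1 h, 1433 and 2297 at 3 h, and 1949 and 2515 at 5 h. Of these markers 1, 3 and 2 were called lower and 0, 1 and 1 higher at the 3 times. Beside these marker counts, 19.1%, 8.15% and 4.09% of all tested genes were called lower in GFP+ cells at 1, 3 and 5 h. Called higher were 13.9% of all tested genes at 1 h, 19.9% at 3 h and 3304 of the 21860 at 5 h. Markers of neural progenitors and radial glia, cells in which her4 genes are known to be active, summed to between 849 and 1054 FPKM in mock, with extremes of 719 and 898 at 1 h, 602 and 718 at 3 h, and 720 and 839 at 5 h (10 of 12 markers matched). At the 3 times 3, 2 and 1 of them were called lower and 0, 2 and 1 higher. This sum includes HES1, itself a her, hes and hey target, which averaged 125 FPKM in mock, 78.4 at 1 h, 74.6 at 3 h and 88.9 at 5 h. The 8 matched markers of vessel endothelium, where hey2 is known to act, summed to between 43.3 and 46.4 FPKM at 1 h, against 31.2 to 40.1 FPKM in mock, with 4 called higher and 0 lower. Their sum lay between 38.1 and 41.2 FPKM at 3 h, with 1 called higher and 1 lower. At 5 h it lay between 32.8 and 43.1 FPKM, with 0 called. At 3 h 7 of 8 blood markers and 3 of 7 neuron markers were called higher, with sums of 548 to 1036 and 24.6 to 40.7 FPKM, against 182 to 380 and 13.0 to 19.6 FPKM in mock. Of these blood and neuron markers, 1 and 0 were called higher at 1 h, and 4 and 1 at 5 h. No marker of these 6 lists was at 0 in any group. Of 4 tested heart and somite markers, 0 were called in GFP+ cells at 1, 3 or 5 h. The part of these markers in the changes of the 3 genes was not tested.

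RNA of GFP- cells in the GFP+ libraries was estimated from the 23 matched blood, neuron, and retina and lens markers. Only those averaging 5 FPKM or more in GFP- cells of the same treatment and time entered. The estimated share lay between 2.03% and 2.96% in mock, 1.93% and 3.19% at 1 h, 3.54% and 5.26% at 3 h, and 2.18% and 4.89% at 5 h. At that share GFP- cells would supply 0.691% to 3.27% of the HEY1 value of a GFP+ library, 1.78% to 8.87% for HEY2 and 2.59% to 17.4% for her4.1. After this share was subtracted the log2 changes at 3 h were -1.08 for her4.1, -0.62 for HEY1 and -0.87 for HEY2, and all 3 calls were kept.

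A list of 74 Notch pathway names matched 65 gene IDs, some names more than 1 and some none, and 60 of the IDs were tested. In GFP+ cells 3 rose and 14 fell at 1 h, 12 rose and 11 fell at 3 h, and 12 rose and 2 fell at 5 h. Of all tested genes 13.9% were called higher at 1 h and 19.9% at 3 h, and 3304 of the 21860 at 5 h. Median-of-ratios scaling gave 5 higher and 15 lower at 1 h, 5 and 16 at 3 h, and 6 and 4 at 5 h; over all genes it moved the share of calls that are higher from 71.0% as deposited to 48.3% at 3 h and from 78.7% to 50.0% at 5 h. In GFP- cells limma called 0, 1 and 0 of the 60 at 1, 3 and 5 h, the 1 being HES2 (ENSDARG00000068168), lower; at an unadjusted p under 0.05 there were 20, 13 and 12 (33.3%, 21.7% and 20.0%), beside 16.3%, 19.9% and 13.6% of all tested genes.

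Every her, hes and hey target called against mock in GFP+ cells was lower, while HEY1 and HEY2 were called higher at 5 h than at 3 h. The target list was taken by name and also held HELT, BHLHE40 and the IDs named HES6. Whether Notch drives each of its genes in these cells was not tested. Of 22 tested, 6 fell at 1 h, 9 at 3 h and 1 at 5 h in GFP+ cells, and none rose, where 19.1%, 8.15% and 4.09% of all tested genes were called lower. In a model of the compared groups alone the count at 3 h was 4, and at 5 h it was 2 with both other scalings, with the replicate number as a block and without GFP+ mock replicate 1. The targets' median log2 change in GFP+ cells was -0.34, -0.36 and -0.12, beside -0.068, 0.11 and 0.099 over all tested genes. In GFP- cells it was -0.38, -0.35 and -0.33, beside -0.040, 0.00096 and -0.033, with 0, 1 and 0 targets called lower. A target median below that of all tested genes was thus seen in both populations. Without her4.1, HEY1 and HEY2 the counts called lower in GFP+ cells were 4, 6 and 1 of 19. At 3 h these 6 were her4.2 to her4.5, HES1 and HES4. Because the share of reads given to each near-identical her4 copy is uncertain, the calls of these copies are not independent of each other. HES6 (ENSDARG00000019335), whose product counteracts Hes1 in mammals, averaged 12.9 FPKM at 1 h and 24.0 FPKM in mock (log2 change -0.84 ± 0.18, limma, adjusted p = 0.00120). her15.1, another Hes5-like gene, averaged 6.79 FPKM at 1 h and 12.2 FPKM in mock (-0.77 ± 0.20, limma, adjusted p = 0.00471). Its neighbouring copy her15.2 and HES1 were also called lower at 1 h, and HES1 and HES4 at 3 h, HES4 being the single target called at 5 h; these 3 and HES2 are named from their calls, outside the rule for named genes.

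Among the 9 ligands, 0 rose and 1 fell at 1 h, 2 rose and 2 fell at 3 h, and 3 rose and 1 fell at 5 h in GFP+ cells. The shares of all tested genes called lower were 19.1%, 8.15% and 4.09% at these times. Called higher were 13.9% at 1 h, 19.9% at 3 h and 3304 of the 21860 at 5 h. The delta ligand DLL1 (ENSDARG00000020219) averaged 20.0 FPKM at 5 h and 7.93 FPKM in mock (log2 change 1.25 ± 0.15, limma, adjusted p = 8.98e-06) and rose by 1.05 ± 0.15 between 5 h and 3 h (limma, adjusted p = 0.00120). The other ID named DLL1 (ENSDARG00000010791) averaged 17.7 FPKM at 5 h and 9.23 FPKM in mock (0.91 ± 0.18); it was also called higher at 3 h (0.60), a call that both other scalings ended (0.44 and 0.40). jag2a was called lower at 1 h (-0.47), which missed the threshold with quantile normalization (-0.32), and at 3 h (-0.39), which missed it with an added 0.1 FPKM (-0.50). Of the 3 receptors, NOTCH3 fell by 0.67 ± 0.13 at 1 h, to 36.9 FPKM after neomycin, against 58.7 FPKM in mock, and NOTCH1 rose by 0.61 ± 0.14 at 3 h and 0.66 ± 0.14 at 5 h.

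The components between receptor and target were mixed. Of 8 genes of receptor cleavage, 1 rose and 1 fell at 1 h, 5 rose at 3 h and 4 at 5 h. Among all tested genes 19.9% were called higher at 3 h and 3304 of the 21860 at 5 h. Higher calls made up 71.0% of all calls at 3 h and 78.7% at 5 h as deposited. With median-of-ratios scaling they made up 48.3% and 50.0%. Of the sheddases that cut the receptor, ADAM17 (ENSDARG00000043213) fell by 0.37 at 1 h and was called higher at 3 h (0.23) and 5 h (0.32), and ADAM17 (ENSDARG00000093093) was called higher at 1 h (0.47) and 3 h (0.78). Both other scalings ended the calls of ADAM17 (ENSDARG00000043213) at 3 h (0.064 and 0.029) and 5 h (0.15). Of 4 genes of the transcription complex, RBPJ (ENSDARG00000052091) was called lower at 1 h, at 1.91 FPKM after neomycin, against 3.83 FPKM in mock (-0.73 ± 0.12), and RBPJ (ENSDARG00000003398) higher at 3 h (0.26 ± 0.088), a call that ended under both other scalings (0.10) and without any 1 of the mock libraries or replicate 1 or 2 of the 3 h group (0.23 to 0.28). Of 14 modifiers and inhibitors, NUMB, an adaptor that lowers Notch receptor levels, averaged 20.3 FPKM at 1 h and 4.95 FPKM in mock (1.86 ± 0.14, limma, adjusted p = 1.44e-08). POFUT1, the enzyme that adds O-fucose to the Notch receptor, fell by 0.74 ± 0.15 at 1 h and was higher at 3 h (0.50) and 5 h (0.74 ± 0.15). NUMB was also called higher at 3 h (0.87) and 5 h (0.55), and at 1 h DLK2 fell by 1.00 and DTX4 by 0.57. Both other scalings ended the calls of POFUT1 at 3 h (0.34 and 0.31) and NUMB at 5 h (0.40 and 0.39). In models of the compared groups alone, the calls given here for NOTCH3, DLK2, DTX4 and ADAM17 (ENSDARG00000093093) at 1 h, jag2a and POFUT1 at 1 h and 3 h, RBPJ (ENSDARG00000003398) at 3 h, DLL1 (ENSDARG00000010791) at 3 h and 5 h, NOTCH1 and NUMB at 5 h, ADAM17 (ENSDARG00000043213) at all 3 times and DLL1 (ENSDARG00000020219) between 5 h and 3 h missed the threshold, with adjusted p from 0.0540 to 0.175. Leaving out single libraries ended those of jag2a, DLL1 (ENSDARG00000010791), POFUT1 and ADAM17 (ENSDARG00000043213) at 3 h and of ADAM17 (ENSDARG00000093093) at 1 h. NOTCH1 at 5 h also missed it without the GFP+ libraries numbered 1 (0.41, adjusted p = 0.0849).

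**Figure D4:**
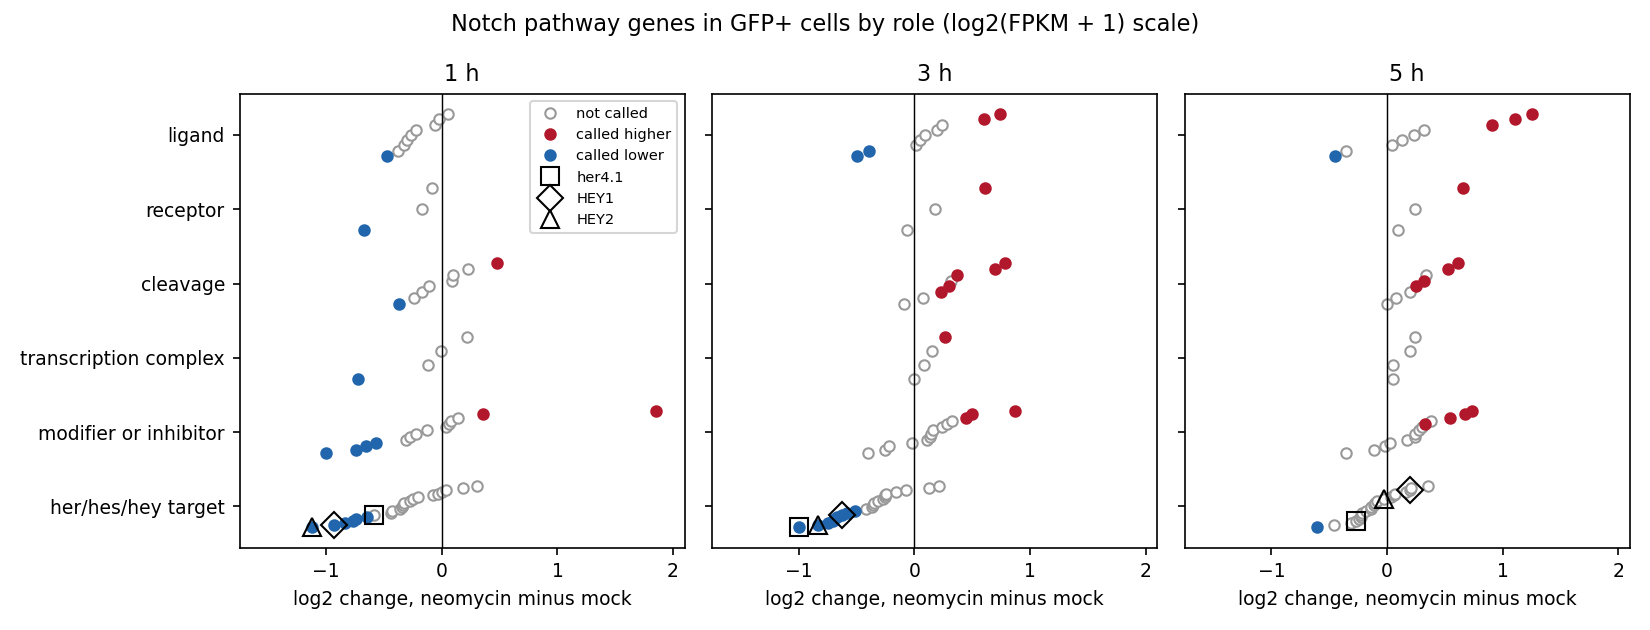
Log2 change (neomycin minus mock, log2(FPKM + 1) scale, horizontal axis) in GFP+ cells of the 60 tested Notch pathway genes, by role, 1, 3 and 5 h after neomycin; red and blue points were called higher and lower, open points were not called, and black outlines mark her4.1, HEY1 and HEY2. In the target row no gene is red at any time. Every other role holds red points at 3 h, and all of these but the transcription complex at 5 h. The list has 12 genes called higher at 3 h and 12 at 5 h, and 5 and 6 with median-of-ratios scaling. Of all tested genes 19.9% were called higher at 3 h and 3304 of the 21860 at 5 h.

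The profile over the 8 group means was compared with that of 14066 candidate genes by the root mean square difference in log2(FPKM + 1), each profile centred on its own mean. her4.5, a near-identical copy, was nearest to her4.1 (0.119), followed by CCDC92 (0.140), gzm3.3 (0.141), DNPH1 (0.142) and TXNL4B (0.147). FZD8 was nearest to HEY1 (0.153), followed by vaspb (0.155), TSPAN11 (0.167), RPE65 (0.167) and ENTPD5 (0.170). VRK2 was nearest to HEY2 (0.132), followed by MTX3 (0.133), HDHD2 (0.137), hcls1 (0.141) and cntrob (0.146). The 3 genes were not among each other's nearest profiles: HEY1 ranked 11476th and HEY2 2400th of 14066 for her4.1, and HEY2 ranked 4002nd for HEY1. The 8 means include the difference between populations, which in mock larvae was 1.22 for HEY1 and -0.72 for her4.1 (log2). Profiles within GFP+ cells alone were not compared.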

How the data were processed

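The authors deposited FPKM per gene and library; CASAVA 1.8.2, TopHat 1.4.1, Cufflinks 1.3 and the build danRer7 are named in the submitters' processing notes. For annotation release, strand setting and filters, no statement is given in the sources used here. Of 31199 table rows, 112 repeats of an ID were dropped. A name table gave 20499 IDs a symbol. From the deposited FPKM, log2(FPKM + 1) values were computed without further scaling. Genes with 1 FPKM or more in at least 3 of 24 libraries were tested with limma 3.58.1 (R 4.3.3): 1 mean per group, variances moderated along an intensity trend, two-sided, Benjamini-Hochberg adjustment over all tested genes of a comparison, threshold 0.05. The scripts were tested on simulated data. With 3 against 3 samples, an exact permutation test cannot go below 0.10. Comparisons with mock share its libraries. The 3 genes and all lists were chosen with earlier results of these data known. Named besides were her4 and hey copies, up to 4 genes per Notch role by p in GFP+ cells at 1 h, and the 5 nearest profiles; of these, changes from mock in GFP+ cells that passed the test are given, except for 1 gene that is not reported here. No block by replicate number entered this model.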

Additional observations from a re-analysis of the deposited data

Results flagged for a closer look

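None of her4.1, HEY1 and HEY2 changed differently in GFP+ and GFP- cells by limma's test of the difference. For the other Notch pathway genes named by the rule, 9 results did. The rule used p in GFP+ cells at 1 h against mock, and these libraries also enter the difference. The 9 results are therefore no independent test. Among all 60 tested list genes, 3, 4 and 6 were called in the difference at 1, 3 and 5 h. The shares of all tested genes were 14.1%, 6.22% and 2.82%. Of the 22 tested her, hes and hey targets, 1 was called higher in this difference at 3 h and 1 at 5 h, and 0 lower. These calls lay outside the rule for named genes, beside 6.22% and 2.82% of all tested genes called in either direction. Values are the log2 change in GFP+ cells minus that in GFP- cells. At 1 h the difference was 1.76 for NUMB (adjusted p = 1.03e-05), -0.74 for RBPJ (ENSDARG00000052091; adjusted p = 0.00562) and -0.58 for the ligand jag2a (adjusted p = 0.0389). At 3 h it was 1.05 for ADAM17 (ENSDARG00000093093; adjusted p = 0.00562) and 0.75 for NUMB (adjusted p = 0.0274); with median-of-ratios scaling NUMB (0.59) missed the threshold. At 5 h it was 1.42 for DLL1 (ENSDARG00000020219; adjusted p = 0.00259), 1.06 for DLL1 (ENSDARG00000010791; adjusted p = 0.0316), 0.81 for ADAM17 (ENSDARG00000093093; adjusted p = 0.0407) and 0.76 for NOTCH1 (adjusted p = 0.0459). With that scaling the last 3 of these missed the threshold, at 0.86, 0.61 and 0.56. The jag2a difference missed it with an added 0.1 FPKM (adjusted p = 0.0569), with quantile normalization (-0.40, adjusted p = 0.163) and without any 1 of 7 libraries (adjusted p from 0.0644 to 0.106). In models of the compared groups alone jag2a, NUMB at 3 h, DLL1 (ENSDARG00000010791), NOTCH1 and ADAM17 (ENSDARG00000093093) at 5 h missed it, with adjusted p from 0.0940 to 0.170, and each of these 5 was also lost when certain single libraries were left out.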

How the results depend on the processing

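The falls of her4.1 at 3 h and of HEY1 and HEY2 at 1 h in GFP+ cells passed the threshold under every setting tried. A pseudocount of 0.1, no filter, a filter of 5 FPKM and subtracting a GFP- share changed none of the 3 genes' calls. Median-of-ratios scaling gave Notch list counts of 5, 5 and 6 higher at 1, 3 and 5 h and 4 lower at 5 h; differences between populations at 5 h of -0.12 (her4.1) and -0.039 (HEY2) (other sign); and -0.35 (her4.1) and 0.31 (HEY2) between mock populations. Quantile normalization gave 5 and 6 higher at 3 and 5 h, 4 lower at 5 h, -0.67 for HEY2 in GFP- cells at 1 h (called, adjusted p = 0.0451), -0.082 (her4.1) and -0.040 (HEY2) for the 5 h difference, -0.46 (her4.1, adjusted p = 0.0923) and 0.37 (HEY2) between mock populations, and 0.72 for HEY2 between 5 h and 3 h (adjusted p = 0.0549). Models of the compared groups alone, with fewer libraries, called 1, 5 and 3 list genes higher and 7, 5 and 1 lower, and did not call HEY1 (-0.63) and HEY2 (-0.83) at 3 h or either between 5 h and 3 h (0.82 and 0.81). The summed her4 copies gave calls at 1 h (-0.57) and between 5 h and 3 h (0.82, adjusted p = 0.0419) and -0.00048 between 5 h and 3 h in GFP- cells. Leaving out the 4 GFP+ libraries numbered 1, a setting chosen after seeing the data, gave 7 higher at 3 h and 4 lower at 5 h, called HEY1 (-0.57) and HEY2 (-0.60) in GFP- cells at 1 h and the HEY2 difference at 3 h (-0.77, adjusted p = 0.0326), lost HEY1 between 5 h and 3 h (0.82, adjusted p = 0.0560), and turned HEY2 to -0.00011 for the 5 h difference and 0.19 between mock populations. Other causes were not tested.

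Samples were not treated as paired by replicate number, as no comparison had residual correlations over 0.1 in every pair (range -0.037 to 0.170). For GFP+ cells at 1 h against mock they were 0.168, 0.0782 and 0.170 for numbers 1, 2 and 3. With the replicate number as a block, her4.1 at 1 h in GFP+ cells (-0.59, adjusted p = 0.0365) and HEY1 at 1 h in GFP- cells (-0.57, adjusted p = 0.0281) passed. Another block joined GFP+ and GFP- libraries of the same treatment, time and number, as if from a shared sort. The labels do not state such a sort, and this block changed no call of the 3 genes.

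Leaving out 1 library at a time gave, in GFP+ cells, her4.1 -0.86 to -0.37 at 1 h, HEY1 -0.78 to -0.48 at 3 h, HEY2 -0.23 to 0.16 at 5 h, and between 5 h and 3 h her4.1 0.59 to 0.94, HEY1 0.75 to 0.92 and HEY2 0.74 to 0.87. In GFP- cells it gave HEY2 -0.67 to -0.55 at 1 h, and between 5 h and 3 h her4.1 -0.0051 to 0.26 and HEY1 -0.049 to 0.13. HEY2 passed in GFP- cells at 1 h without GFP+ 1 h replicate 1 or GFP+ mock replicate 1 or 2 (limma, adjusted p = 0.0380, 0.0313 and 0.0420). Without GFP+ 3 h replicate 2, her4.1 passed in GFP+ cells at 1 h and between 5 h and 3 h (limma, adjusted p = 0.0453 and 0.0496). Differences between populations ran from -0.47 to 0.015 (her4.1) and -0.73 to -0.33 (HEY2, called without GFP+ mock replicate 1) at 1 h and from -0.069 to 0.25 (her4.1) and -0.061 to 0.34 (HEY2) at 5 h; HEY2 ran from -0.20 to 0.19 between mock populations. List counts ran from 1 to 3 higher at 1 h, and from 7 to 13 higher and 7 to 13 lower at 3 h (lowest without GFP+ mock or 3 h replicate 1). her4.5 at 5 h ran from -0.050 to 0.35. Over all genes the share of calls that are higher moved in GFP- cells at 1 h (69.5% as deposited, 83.8% with median-of-ratios) and 5 h (46.1% and 61.9%), for the difference at 3 h (86.8% and 54.9%) and 5 h (91.7% and 57.6%), and between mock populations (31.1% and 47.0%).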

Other observations

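Replicate number 1 held the lowest value of its group in 11 of the 12 combinations of the 3 genes with the 4 GFP+ groups, the exception being HEY2 at 3 h, and in 7 of 12 in GFP- cells. The 12 combinations reuse the same libraries and are not independent. How often number 1 was lowest among all tested genes was not counted. The GFP+ libraries numbered 1 also held the highest estimated GFP- share at 1, 3 and 5 h after neomycin, and the lowest in mock.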
